A study of Mus musculus with 12 samples.

Results

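Flt3 and Il12a were followed over 4 groups of sorted mouse bone marrow cells as a pair labelled early lymphoid-associated genes. Whether that label holds for Il12a was not tested, and its levels were nearly unrelated to those of Flt3 (Pearson's r 0.060 over 12 arrays). Each gene was taken as the array probe set annotated to its symbol, with the highest mean where several exist, and each has a single one, so the members are 2 of the 9984 genes measured. They were selected on values of these arrays, which were known from earlier results. The members were chosen by the values of Flt3 in hematopoietic stem cells (HSCs) and between the populations and of Il12a in multipotent progenitors (MPPs), and these are therefore given as a description with no test. The intervals and ranks printed with them take no account of that choice and are no tests either. Tests are given for Flt3 in MPPs and for Il12a in HSCs, and since these share arrays with the values that chose the genes they are not independent of that choice.

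The study asked how ERG, a transcription factor of the ETS family, acts on the maintenance and differentiation of blood stem cells, and profiled RNA on 12 Affymetrix gene arrays, 3 per group. All mice were male and on a C57Bl/6 background of at least 6 generations, and their ages are not given in the sources used here. HSCs were Lineage-, Sca-1+, c-kit+, CD150+, CD48- cells of Erg +/+ mice and of Erg +/- mice, the latter bred from Erg fl/+ mice and a general Cre deleter, and the titles of the Erg +/- arrays call them knock-outs. MPPs were taken from Erg fl/fl animals that lacked Cre, whose condition label is wild type, and from Erg -/- mice, which are Erg fl/fl with Mx1-Cre and have lost exon 11, the exon of the DNA-binding domain. Both MPP groups received 5 injections of pIpC at intervals of 2 days and were sorted 2 weeks after the first, and no pIpC is named for the HSC mice. Mx1-Cre is induced by interferon and is not restricted to blood cells, and within the MPPs Cre and the loss of Erg cannot be told apart. For MPPs the sorting field gives Lineage-, Sca-1+, c-kit+, CD150- cells, but the sample source is written with the CD150+ CD48- gate of the HSCs. As log2 signals, 6 measured HSC-associated genes had mean levels of 9.09 to 9.31 on the HSC arrays. Their means were 6.77 to 6.93 on the Erg fl/fl MPP arrays and 6.23 to 6.43 on the Erg -/- MPP arrays. Of the 6, 5 were called lower in MPPs than in HSCs of the control genotypes, against 0.631% of all genes (limma, adjusted p under 0.05). That list was drawn up with earlier results of these data known, so its values are a description. Which gate was used for the MPPs was not tested. Erg itself is not analysed here, so the genotypes rest on the labels. Whether the 3 samples of a group stem from different mice is not said in the labels, and the p-values thus reflect sample-to-sample spread that may be technical.

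Flt3 encodes a class III receptor tyrosine kinase for the cytokine Flt3 ligand. In mouse marrow it is low or absent on the most primitive stem cells, appears on multipotent progenitors and is high on those primed for the lymphoid lineages, where its signal supports B cell and dendritic cell development. Il12a encodes p35, the subunit that pairs with p40 to form interleukin-12 and with Ebi3 to form interleukin-35. Interleukin-12 is best known as a product of dendritic cells and macrophages that acts on T and NK cells.

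ETS factors such as ERG recognise DNA with a GGAA core, so the 250 bases before the RefSeq starts of both genes are shown, 5′ to 3′ on the gene's strand, with each GGAA or its complement TTCC in capitals. They come from the RefSeq promoter table of build GRCm38.p6, which holds 1 start for Flt3 and 2 for Il12a, and lie at chr5:147400490-147400739 on the minus strand (Flt3), chr3:68690394-68690643 on the plus strand (Il12a, start 1) and chr3:68691174-68691423 on the plus strand (Il12a, start 2).
Flt3: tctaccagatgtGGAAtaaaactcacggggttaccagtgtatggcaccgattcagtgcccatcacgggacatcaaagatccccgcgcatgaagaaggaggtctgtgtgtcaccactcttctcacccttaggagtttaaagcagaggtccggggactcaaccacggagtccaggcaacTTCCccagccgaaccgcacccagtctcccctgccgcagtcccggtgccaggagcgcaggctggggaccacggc
Il12a start 1: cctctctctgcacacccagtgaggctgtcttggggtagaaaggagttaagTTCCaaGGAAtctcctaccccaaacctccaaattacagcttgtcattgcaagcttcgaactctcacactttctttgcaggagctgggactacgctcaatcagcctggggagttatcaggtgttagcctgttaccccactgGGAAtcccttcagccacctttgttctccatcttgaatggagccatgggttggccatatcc
Il12a start 2: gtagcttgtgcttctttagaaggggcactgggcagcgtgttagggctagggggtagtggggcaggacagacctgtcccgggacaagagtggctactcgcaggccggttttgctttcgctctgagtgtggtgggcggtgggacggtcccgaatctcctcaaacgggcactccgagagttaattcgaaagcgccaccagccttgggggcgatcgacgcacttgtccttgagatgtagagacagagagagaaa
The Flt3 window holds 2 such cores, 1 on each strand, and the first Il12a window holds 3, while the second holds 0. A core of this length is common: 93.4% of the 32851 promoter windows of the same length hold at least 1 on either strand, with a median of 3, and 76.8% hold as many as Flt3 or more. Longer forms of the motif were searched on both strands, and they overlap the core. GGAAG is in 64.1% of windows, AGGAAG in 29.5%, CGGAAG in 13.6% and CCGGAA in 12.03%. The Flt3 window holds 1 GGAAG, read on the other strand, and none of the 3 longer forms, and neither Il12a window holds any of the 4. GC content was 59.2% for Flt3, 50.8% for the first and 58.4% for the second Il12a window, against a median of 52.4% over all windows. These matches describe the windows and say nothing about binding.

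The level of Flt3 separated the 2 populations and, within the HSCs, the Erg genotypes. On the log2 scale it read 6.38, 5.98 and 6.34 on the 3 Erg +/+ HSC arrays (6.23 ± 0.222, SD, n = 3). In Erg +/- HSCs it read 5.45, 4.69 and 4.57 (4.91 ± 0.479, SD, n = 3). In Erg fl/fl MPPs it read 9.05, 8.70 and 8.65 (8.80 ± 0.220, SD, n = 3). In Erg -/- MPPs it read 9.29, 9.65 and 9.04 (9.32 ± 0.311, SD, n = 3). From low to high the groups ran from Erg +/- HSCs through Erg +/+ HSCs and Erg fl/fl MPPs to Erg -/- MPPs, and only the last neighbours shared part of their range. The array medians lay between 5.41 and 5.54, so Flt3 in Erg +/- HSCs was near or under the middle of its array, and whether it stood above background is not known because the values carry no detection calls.

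**Figure D1:**
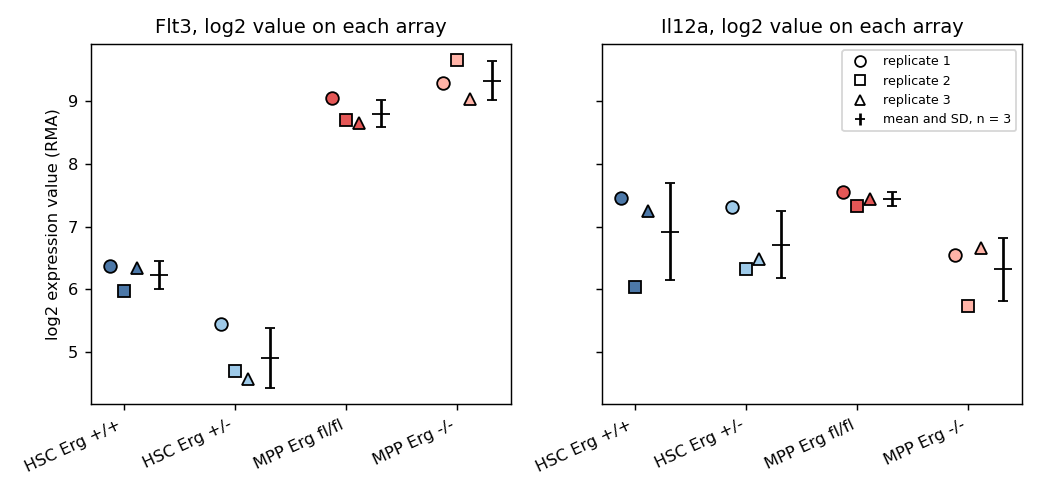
Log2 signal of Flt3 and of Il12a on each of the 12 arrays, by group, with the group mean and SD (n = 3 arrays per group). Flt3 lies between 4.57 and 6.38 on the HSC arrays and between 8.65 and 9.65 on the MPP arrays, while Il12a overlaps between most groups and is lowest, at 5.74 to 6.67, in Erg -/- MPPs.

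In HSCs the 3 Erg +/- arrays all lay under the 3 Erg +/+ arrays, with a gap of 0.52 between the nearest. The difference was -1.33 on the log2 scale (SE 0.250, 95% interval -1.87 to -0.78), or 2.51-fold lower, and it placed Flt3 24th from the lowest of the 9984 genes. Leaving out each array in turn gave -1.60 to -1.16. In all, 10.4% of genes had groups that did not overlap in this comparison and 4.38% were lower in that way. The comparison called 2 genes in all, 0.02% of those tested (limma, adjusted p under 0.05). In bulk samples, fewer cells that express a gene and less RNA per cell cannot be told apart.

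In MPPs the direction was the other one, and it did not pass the test. Flt3 was 0.52 higher in Erg -/- than in Erg fl/fl MPPs (SE 0.250, 95% interval -0.02 to 1.06), or 1.44-fold, with an adjusted p of 0.998 in limma and an unadjusted p of 0.0578. The exact two-sided permutation test over the 6 arrays gave p = 0.2, where the smallest p that 3 against 3 can give is 0.1. The groups overlapped by 0.019, since the lowest Erg -/- array (9.04) fell just under the highest Erg fl/fl array (9.05), and the Erg -/- array was the higher in 8 of the 9 pairs across groups. Without each array in turn the difference was 0.36 to 0.67. This comparison called 8 genes, 0.0801% of those tested, and all 8 were lower in Erg -/- MPPs. The 2 differences between Erg genotypes, that in MPPs minus that in HSCs, differed by 1.85 for Flt3 (SE 0.353, 95% interval 1.08 to 2.62, 1.68 to 2.12 with each array left out), the 14th highest value of all genes. That value, called the difference of effects below, contains the HSC difference that chose the gene and has no test here.

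Between the populations Flt3 was among the genes that differed most. With the control genotypes it was 2.57 higher in MPPs than in HSCs (SE 0.250, 95% interval 2.03 to 3.11), or 5.94-fold, with a gap of 2.27 between the groups, the 6th highest difference of 9984. With Erg reduced or absent it was 4.42 higher (SE 0.250, 95% interval 3.88 to 4.96), or 21.4-fold, with a gap of 3.58 and the highest difference of all genes measured. Groups did not overlap for 27% of genes in the first of these comparisons and for 20.1% in the second. The populations also differ in pIpC, in the gate, in the floxed allele and, with Erg reduced or absent, in the Cre line, and these cannot be told apart from the cell type. Of all genes, 128 (1.28%) were called between the controls and 12 (0.12%) between the groups with reduced or absent Erg (limma, adjusted p under 0.05), and 3.85% had an unadjusted p under 0.05 in the latter.

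Il12a followed another order, with arrays that differed more within groups. It read 7.46, 6.03 and 7.26 in Erg +/+ HSCs (6.92 ± 0.775, SD, n = 3). In Erg +/- HSCs it read 7.32, 6.32 and 6.49 (6.71 ± 0.536, SD, n = 3). In Erg fl/fl MPPs it read 7.55, 7.32 and 7.44 (7.44 ± 0.113, SD, n = 3). In Erg -/- MPPs it read 6.55, 5.74 and 6.67 (6.32 ± 0.504, SD, n = 3). From low to high the groups were Erg -/- MPPs, Erg +/- HSCs, Erg +/+ HSCs and Erg fl/fl MPPs, and each neighbour in this order overlapped the next and differed from it by less than the spread between replicates. The 3 Erg fl/fl MPP arrays were close together and all in the upper part of the range, and in each of the 4 groups the array numbered replicate 2 was the lowest.

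In MPPs all 3 Erg -/- arrays were under the 3 Erg fl/fl arrays, with a gap of 0.66. Il12a was lower by a difference of -1.12 (SE 0.376, 95% interval -1.94 to -0.30), or 2.17-fold, the 38th lowest of 9984 genes. Leaving out each array in turn gave -1.29 to -0.83. Groups that did not overlap made up 10.5% of genes here, and 6.1% were lower in that way. In HSCs the groups overlapped over most of their range, with a difference of -0.21 between Erg +/- and Erg +/+ (SE 0.376, 95% interval -1.02 to 0.61). The limma test gave an adjusted p of 0.980 and the exact two-sided permutation test gave p = 0.9, with 0.1 the smallest possible. The Erg +/- array was the higher in 4 of 9 pairs. Single arrays moved this value: the difference was -0.65 without Erg +/+ replicate 2 and turned to 0.07 without Erg +/+ replicate 1. The interval runs down to -1.02, so this comparison leaves room for a fall of about that size. It comes from the fit without the replicate number as a block, and with that block the SE was 0.258.

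Il12a differed little between the populations relative to its spread. It was 0.52 higher in MPPs than in HSCs of the control genotypes (95% interval -0.30 to 1.34), with the MPP array higher in 7 of 9 pairs, and this rested on Erg +/+ HSC replicate 2, without which the difference was 0.08. With Erg reduced or absent it was lower in MPPs by a difference of -0.39 (95% interval -1.21 to 0.42), and -0.09 to -0.59 with each array left out. The groups overlapped in both cases. The difference between Erg genotypes for Il12a was 0.91 lower in MPPs than in HSCs. This value of -0.91 (SE 0.532, 95% interval -2.07 to 0.24) was -0.47 without Erg +/+ HSC replicate 2.

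The levels of Flt3 and Il12a were nearly unrelated across the arrays. Pearson's r was 0.060 and Spearman's rho 0.13 over the 12 arrays, and r was 0.41 for the deviations from the group means. These are descriptions, since the arrays of a group share its genotype and sort. Ranked by r with Flt3, Il12a came 2101st of the 4653 genes that spanned at least 1 log2 unit.

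**Figure D2:**
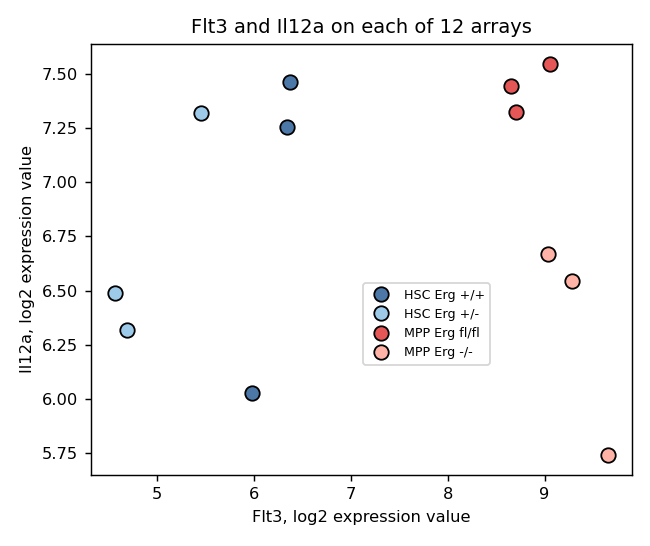
Log2 signal of Il12a against that of Flt3 on each of the 12 arrays, coloured by group. The HSC and MPP arrays separate along the Flt3 axis, and within the MPPs the 3 Erg -/- arrays lie under the 3 Erg fl/fl arrays along the Il12a axis.

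Among the other receptors and ligands of Flt3's class, 13 genes were listed and 3 besides Flt3 had a value. None of Pdgfrb, a receptor for platelet-derived growth factors, Pdgfa, one of their ligands, and Il34, a ligand of the Csf1 receptor, was called in any comparison. Pdgfrb read -0.67 in Erg +/- against Erg +/+ HSCs (SE 0.246, limma adjusted p = 0.740, unadjusted 0.0178). Il34 was 0.47 higher in MPPs than in HSCs of the control genotypes (limma adjusted p = 0.132, unadjusted 0.0124).

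Of 39 genes listed as partners or targets of Flt3 signalling, 12 had a value and 0 were called by limma in any comparison. In HSCs 11 of the 12 were negative in Erg +/- against Erg +/+, with a median of -0.35 against 0.02 over all genes. Of all genes 6.32% had an unadjusted p under 0.05, and 3.59% had one and were lower. Of the 12, 2 had one, both lower. One of these, Socs6, a suppressor of cytokine signalling that binds the activated receptor, read 7.48, 6.30 and 7.35 in Erg +/+ and 5.29, 7.23 and 5.24 in Erg +/- HSCs. Its difference was -1.13 (SE 0.510, limma adjusted p = 0.789), and Erg +/- replicate 2 lay with the controls. With the mean of its probe sets it was -0.59 in HSCs. Syk, a cytoplasmic tyrosine kinase, read 7.61, 7.41 and 7.25 in Erg +/+ and 6.59, 6.92 and 6.53 in Erg +/- HSCs, with no overlap and a difference of -0.75 (SE 0.315, limma adjusted p = 0.789). Ptpn11, the phosphatase Shp2, and Inpp5d, the lipid phosphatase Ship1, had groups without overlap at -0.38 and -0.39. With Syk that made 3 of the 12 lower without overlap, against 4.38% of all genes. On average the 12 genes read 7.22 to 7.37 on the Erg +/+ arrays and 6.82 to 7.11 on the Erg +/- arrays. In MPPs the same list had 7 negative and 5 positive members, a median of -0.04 against 0.00 over all genes, and 0 with an unadjusted p under 0.05, against 4.79% of all genes. Between the controls all 12 were lower in MPPs than in HSCs in sign, with a median of -0.36 against 0.12 over all genes. Of all genes 22.3% had an unadjusted p under 0.05 there, and 7.91% had one and were lower. The 3 of the list, all lower, were Socs6 at -1.95 (limma adjusted p = 0.0811, and -0.98 with the mean of its probe sets), Ptprj, a receptor phosphatase, at -1.13 (0.196) and Ptpn11 at -0.50 (0.147). The HSC comparison and this one share the Erg +/+ arrays.

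Of 13 transcription factors known to act on Flt3, 5 had a value and 0 were called in any comparison. Cebpa, a myeloid factor, was 1.45 higher in MPPs than in HSCs of the control genotypes (SE 0.330, limma adjusted p = 0.0536), and it passed the threshold in 4 of 17 alternative settings, with 0.0219 the smallest adjusted p. Hoxa9, a homeobox factor of stem and progenitor cells, read -0.80 in the same comparison (SE 0.231, limma adjusted p = 0.0993). In HSCs the differences between Erg genotypes for Hoxa9, Cebpa, Pax5, Mef2c and Gfi1 were between -0.14 and 0.29. In MPPs they were between -0.65 for Cebpa and 0.26 for Hoxa9. The value of Cebpa was -1.10 to -0.32 with each array left out in turn.

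The early lymphoid list named 33 genes, of which 7 besides the members had a value: Ebf1, Blnk, Cd7, Lef1, Mef2c, Notch1 and Id3. Between the controls 3 of these 7 were called and were higher in MPPs than in HSCs, against 0.651% of all genes called higher, and their median difference was 0.85 against 0.12 over all genes. Ebf1, a transcription factor of the B lineage, read 3.98, 4.30 and 4.27 in Erg +/+ HSCs and 5.48, 5.43 and 6.11 in Erg fl/fl MPPs, with no overlap and a difference of 1.49 (SE 0.238, limma adjusted p = 0.0114). Lef1, a factor of the Wnt pathway, rose by 0.90 (SE 0.186, limma adjusted p = 0.0369). Cd7, a surface protein of early T lineage cells, rose by 0.87 (SE 0.161, limma adjusted p = 0.0248). The calls depended on single arrays for Lef1, which missed the threshold without Erg +/+ HSC replicate 1 or 3 or without Erg fl/fl MPP replicate 2 or 3 (adjusted p up to 0.124), and for Cd7, which missed it without Erg +/+ HSC replicate 1 or Erg fl/fl MPP replicate 2 or 3 (adjusted p up to 0.0867). Ebf1 was called with any single array left out, and missed the threshold, at an adjusted p of 0.0608, without the 2 arrays of lowest weight together. Blnk, an adaptor of B cell receptor signalling, was 0.85 higher (limma adjusted p = 0.0983).

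The same 7 genes were set beside Flt3 in the comparisons of Erg genotypes, with no test of their difference from it. In HSCs, where Flt3 read -1.33, 6 of the 7 others were positive, with a median of 0.20 against 0.02 over all genes, from -0.30 for Id3 to 0.43 for Blnk. None was called by limma, and 0 had an unadjusted p under 0.05. In MPPs 5 of the 7 were negative, with a median of -0.08 against 0.00, and none was called. The 2 with an unadjusted p under 0.05 were Ebf1 and Cd7, both lower, against 4.79% of all genes in either direction and 3.58% lower. The 3 lower without overlap were Ebf1, Cd7 and Lef1, against 6.1%. Ebf1 read 4.23, 4.47 and 4.63 in Erg -/- MPPs, all under the Erg fl/fl arrays and close to the HSC levels, a difference of -1.23 (SE 0.238, limma adjusted p = 0.152, unadjusted 0.000219). Cd7 read 5.86, 6.28 and 6.07 in Erg fl/fl and 5.62, 5.59 and 5.81 in Erg -/- MPPs, with no overlap and a difference of -0.40 (SE 0.161, limma adjusted p = 0.998). Lef1 read 5.65, 5.98 and 5.85 against 5.63, 5.54 and 5.45, also with no overlap, at -0.29 (SE 0.186, limma adjusted p = 0.998). The differences between Erg genotypes in the 2 populations differed by -1.43 for Ebf1 (SE 0.337, limma adjusted p = 0.487), whereas the value for Flt3 was 1.85. None of the 7 was called for that difference, and 3, all negative, had an unadjusted p under 0.05. Of all genes 0.02% were called, 3.88% had such a p, and 2.44% had one and were negative.

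**Figure D3:**
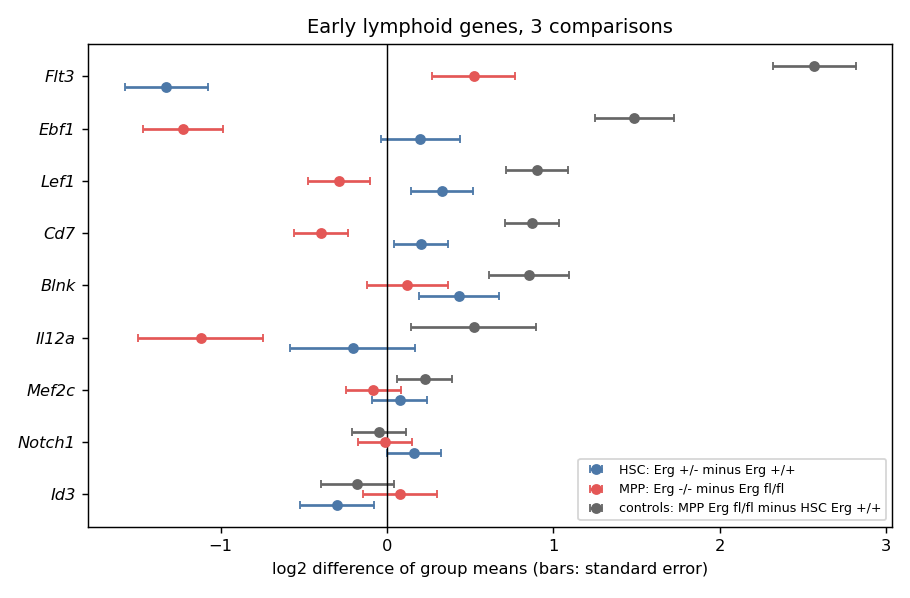
Log2 differences of Flt3, Il12a and the 7 other measured genes of the early lymphoid list, with SE bars, in the comparisons of Erg genotypes within HSCs and within MPPs and of MPPs with HSCs. Flt3 is at -1.33 in HSCs and 0.52 in MPPs, whereas Ebf1 is at 0.20 and -1.23.

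Of the other interleukin-12 family cytokines and receptors, 10 were listed and 3 besides Il12a had a value. The gene for p40, the partner of p35 in interleukin-12, is not among them and is not analysed here. None of Il23a, a subunit that also pairs with p40, Il27, a subunit that also pairs with Ebi3, and Il12rb1, a receptor chain of interleukin-12, was called in any comparison. In MPPs, where Il12a differed by -1.12, the differences between Erg genotypes were -0.06 for Il23a, 0.06 for Il27 and -0.19 for Il12rb1, with an SE of 0.223, 0.163 and 0.170. Between the controls Il23a was 0.85 higher in MPPs than in HSCs (SE 0.223, limma adjusted p = 0.0811) and passed the threshold in 2 of 16 alternative settings. Il27 was 0.49 higher (SE 0.163, limma adjusted p = 0.128) and Il12rb1 0.05 higher (SE 0.170).

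Of 15 genes listed for signalling and targets downstream of interleukin-12, 3 had a value, and of 13 factors known to act on Il12a or Il12b, 2 had. Irf1, an interferon-induced factor that is in both lists, read 7.50, 7.72 and 7.16 in Erg +/+ and 6.15, 7.02 and 6.28 in Erg +/- HSCs. The groups did not overlap, and the difference was -0.98 (SE 0.282, limma adjusted p = 0.559, unadjusted 0.00439). In MPPs Irf1 differed by -0.43 (SE 0.282, limma adjusted p = 0.998). Irf8, a factor of dendritic cells and monocytes, read 5.18, 5.72 and 5.96 in Erg +/+ HSCs and 6.81, 6.48 and 6.70 in Erg fl/fl MPPs, and was called higher there by 1.05 (SE 0.215, limma adjusted p = 0.0364). That call held without Erg +/+ HSC replicate 3 and was lost without any other single array, with adjusted p-values up to 0.113. In Erg -/- MPPs Irf8 read 6.07, 6.13 and 6.24, all under the Erg fl/fl arrays, at -0.52 (SE 0.215, limma adjusted p = 0.998, unadjusted 0.0318). Socs1 and Socs3, feedback inhibitors of cytokine signalling, differed by -0.07 to 0.26 between Erg genotypes in the 2 populations.

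Several lists of cell type markers, early B lineage genes among them, also differed in level between Erg genotypes. Their relation to the values of the members was not tested. The 6 measured B cell markers, among them Ebf1, averaged 6.42 to 6.84 on the Erg fl/fl MPP arrays, 5.22 to 5.47 on the Erg -/- MPP arrays and 5.06 to 5.61 on the HSC arrays, and 2 of the 6 were called lower in Erg -/- MPPs, against 0.0801% of all genes. These were the pre-B cell receptor genes Vpreb1 at -4.75 and Igll1 at -1.88, whereas Bank1, named after its value was seen, was 1.25 higher without overlap (limma adjusted p = 0.366, unadjusted 0.000953). The 4 measured dendritic cell markers, among them Irf8, averaged 5.34 to 5.58 in Erg fl/fl and 5.03 to 5.23 in Erg -/- MPPs, where all 4 were negative and 0 were called by limma, with Clec9a, a receptor of cross-presenting dendritic cells, at -0.64 (limma adjusted p = 0.998, unadjusted 0.0233). Among mast cell and basophil markers 4 had a value, with averages of 5.69 to 6.59 in Erg fl/fl and 4.87 to 5.27 in Erg -/- MPPs. Of these 1, Mcpt8, was called lower in Erg -/- MPPs, at -3.54, again against 0.0801% of all genes. The others were Ms4a2 at -0.64, Hdc at -0.37 and Il6ra at 0.09, none of them called. In HSCs the 6 measured endothelial and stromal markers, among them Pdgfrb, averaged 7.06 to 7.59 in Erg +/+ and 6.27 to 6.42 in Erg +/-. All 6 were negative and 1, Sparc, a matrix protein, was called lower at -2.08 (limma adjusted p = 0.0401), a call that held in 2 of the 6 fits with 1 array left out. Of all genes 0.01% were called lower there. The 8 erythroid and megakaryocyte markers averaged 5.51 to 5.95 in Erg +/+ and 6.11 to 6.33 in Erg +/- HSCs, with 6 positive, 2 negative and 0 called. Of the 8, 4 were higher with an unadjusted limma p under 0.05, against 2.73% of all genes. In MPPs they averaged 5.82 to 6.06 in Erg fl/fl and 6.14 to 6.32 in Erg -/-, with 7 positive, 1 negative and 0 called. There 1 was higher with such a p, against 1.21% of all genes. T and NK cell and monocyte and macrophage markers had 0 called in either comparison of Erg genotypes. Of the 7 monocyte and macrophage markers, 2 were higher in Erg +/- HSCs with an unadjusted limma p under 0.05, against 2.73% of all genes. In MPPs 0 of the 7 had such a p. Whether these signals came from other cells or from the sorted cells themselves was not tested. The part of such other cells in the values of Flt3, Il12a, Ebf1 and Irf8 was not tested either.

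The genes most like and least like each member over the 12 arrays were taken by Pearson's r, among the 4653 genes that spanned at least 1 log2 unit. For Flt3 the closest were Ifitm10, Otulinl, Cdk8 and Car5a at 0.75 and Mcam at 0.74, and no gene reached 0.9. The least like were Nupr1 at -0.98, Gltp at -0.97 and Cracd at -0.96, and 9 genes lay at -0.9 or below. Nupr1, a stress-response gene of quiescent stem cells, averaged 8.51 in Erg +/+ HSCs, 9.72 in Erg +/- HSCs, 6.85 in Erg fl/fl MPPs and 6.91 in Erg -/- MPPs. It therefore mirrored Flt3 within the HSCs (r = -0.95 over 6 arrays) and not within the MPPs (r = 0.12 over 6 arrays). Cracd averaged 6.14 and 7.77 in the HSC groups and 4.68 and 4.78 in the MPP groups, with r = -0.94 within HSCs and -0.05 within MPPs. For the 5 closest genes to Flt3, within the HSC arrays r ran from -0.02 to 0.51 and within the MPP arrays from -0.28 to 0.52.

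For Il12a the closest genes were Pex7, a peroxisomal import receptor, at 0.81, Tdp1, a DNA repair enzyme, at 0.80, Akap9, a scaffold protein, at 0.80, and Thap6 and Oxsm at 0.77. The least like were Hoxa10 at -0.80, Abcb4 at -0.75 and Tmem51os1 at -0.75, and no gene reached 0.9 in either direction. For the 5 closest, r ran from 0.73 to 0.87 within the HSC arrays and from 0.79 to 0.97 within the MPP arrays, with n = 6 in each. Each of these sets of 6 holds both Erg genotypes. For the deviations from the group means over the 12 arrays, r ran from 0.58 to 0.84, so the likeness includes spread between replicates. Hoxa10, a homeobox factor of stem and progenitor cells, averaged 6.69 in Erg fl/fl and 7.32 in Erg -/- MPPs. All these correlations describe 12 arrays that share groups, and genes picked as the extremes of 4653 are extreme by choice.

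**Figure D4:**
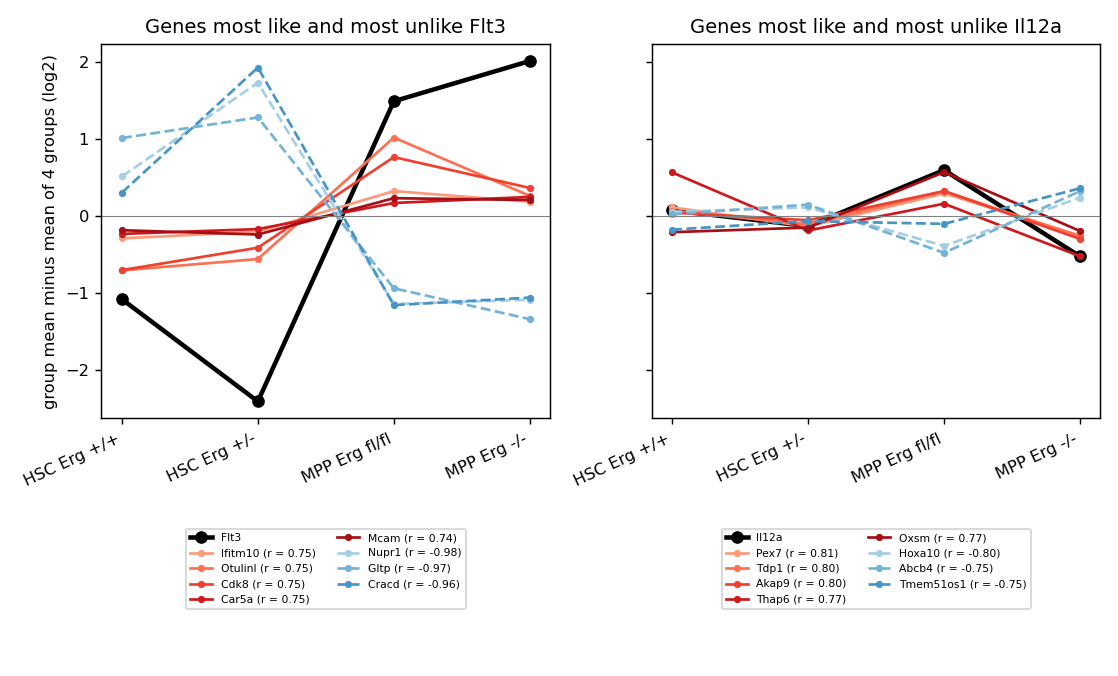
Group means of log2 signal, each gene centred on its own mean over the 4 groups, for Flt3 and Il12a with the 5 genes of highest and the 3 of lowest Pearson's r over 12 arrays. The 3 genes least like Flt3 step down from HSCs to MPPs, and the 5 genes most like Il12a are lowest in Erg -/- MPPs or level there with the HSCs.

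The nearest measured genes on each side of the members were looked at for changes shared along the chromosome. They lay 2 to 16 genes away in the RefSeq gene order. Beside Flt3, on chromosome 5, Urad, Pdx1, Pan3 and Pomp differed by -0.25 to 0.41 between Erg genotypes in HSCs and by -0.20 to 0.20 in MPPs. Beside Il12a, on chromosome 3, Mfsd1, Rarres1 and 1110032F04Rik differed by -0.36 to 0.01 in MPPs, and the probe set of Mir15b by 0.80. None of these 8 neighbours was called by limma in any comparison, and the largest difference in HSCs was that of Mir15b, at -1.32 (limma adjusted p = 0.788, unadjusted 0.0303). The group means of Mir15b were 2.32 to 3.64, far under the array medians of 5.41 to 5.54. Its SD was 1.12 in Erg +/+ HSCs and 1.10 in Erg -/- MPPs.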

How the data were processed

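RNA of the sorted cells was measured on 12 arrays, from 20 ng of total RNA per sample, amplified, with 2.5 µg of cDNA labelled, per the labels' protocols. The deposited values are log2 signals, which the authors made with RMA and the affy package per the submitters' processing notes (with no version, and without saying whether the 12 arrays were normalised together). RMA sets the probe signals of arrays normalised together to a common distribution and compresses folds of dim genes. Of 18719 probe sets, 10657 have 1 gene symbol, 523 several and 7539 are not listed in the annotation and were not named. Each gene is its probe set of highest mean, which gave 9984 genes. Of their gene IDs 9933 matched the RefSeq table of GRCm38.p6, from which the order of neighbours and the promoter windows were taken, and the sources used here give no build for the array annotation. Interquartile ranges were 2.83 to 2.99 on HSC arrays and 2.50 to 2.84 on MPP arrays, so the deposited values did not share a common distribution. Arrays of a group correlated at 0.9528 to 0.9743. Their number, 3 per group, limits the precision.

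A single model with 1 mean for each group was fitted in limma 3.58.1 under R 4.3.3, with 8 residual degrees of freedom plus 4.35 from the prior, two-sided, with Benjamini-Hochberg adjustment over the 9984 genes and a threshold of 0.05. Intervals are 95% intervals of the moderated fit and take no account of how the members were chosen. Exact permutation tests used scipy 1.17.1. The fit was run on simulated data with independent normal noise. That noise follows the assumptions of the model and holds no spread shared by replicate number, so the run does not test those assumptions. Groups follow the genotype labels. Over all genes same-numbered arrays did not deviate together (12 pairs, correlations of -0.0852 to 0.104, 1 over 0.1), so the numbers were not used as pairs. For Il12a, however, replicate 2 was the lowest in each group. With the replicate number as a block its SE was 0.258, against 0.376 without. The alternatives comprised the replicate number as a block, dropping genes under percentile 25 or 50 by mean level, averaging probe sets per gene, quantile normalisation once more, median centring, robust moderation with an intensity trend, weighting of arrays, a fit of only the arrays compared, all probe sets, and each array left out. Leaving out the 2 arrays of lowest weight, replicate 1 of the Erg +/+ HSCs and replicate 1 of the Erg fl/fl MPPs, and all alternatives for the genes of the lists were added after seeing the data.

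Named genes are the members, measured members of 7 lists for their pathways, the 5 genes most like and the 3 least like each member (leaving out sensory receptors, small RNAs, clones and predicted genes), the 2 nearest measured genes on each side, and marker genes of smallest p. The members and the lists were chosen with earlier results of these data known.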

Additional observations from a re-analysis of the deposited data

Results flagged for a closer look

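For Flt3 the differences between Erg genotypes had opposite signs in the 2 populations, although that in MPPs did not pass the test (0.52, 95% interval -0.02 to 1.06, limma adjusted p = 0.998). All 3 Erg +/- HSC arrays lay under the Erg +/+ mean of 6.23, and all 3 Erg -/- MPP arrays lay above the Erg fl/fl mean of 8.80, with the lowest of them (9.04) just under the highest Erg fl/fl array (9.05). The 2 differences lay 1.85 apart on the log2 scale, and this value was not tested, since it contains the HSC difference that chose the gene. By the labels the Erg +/- HSCs keep 1 copy of Erg and the Erg -/- MPPs none, and the populations also differ in pIpC and in the Cre line.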

How the results depend on the processing

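Of 136 alternative values for the differences of Flt3 and Il12a, 134 kept their direction, and the tested ones kept their side of the threshold. The exception was Il12a in HSCs, which turned to 0.067 without Erg +/+ HSC replicate 1 (adjusted p = 1.00) and also without the 2 arrays of lowest weight (0.067). With each array left out, its difference ran from -0.65 to 0.067. Many of the 136 values could not have changed direction. Each member has a single probe set and passed both filters. The block, the filters, averaging of probe sets, moderation, a fit of only the arrays compared and the use of all probe sets therefore leave its difference as it was. Most of the differences are also ones that chose the genes, so the count of 134 is a description. The adjusted p of Flt3 in MPPs was 0.780 to 1.00 over all alternatives (unadjusted 0.0192 to 0.211). With the replicate number as a block it was 0.998 (unadjusted 0.0457), and that of Il12a in HSCs was 0.961. The block moved the called genes from 2 to 1 in HSCs and from 2 to 0 for the difference of effects. Counts of called genes moved too. In HSCs (2 called) they were 7 with the filter at the 25th percentile, 5 with trend and robust moderation, and 0 with the mean of probe sets, with only the arrays compared or without the 2 arrays of lowest weight. In MPPs (8) the count was 4 without those arrays. Between the controls (128) it was 61 with only the arrays compared, 60 with all probe sets and 61 without those arrays. For the difference of effects (2) it was 4 with trend and robust moderation and 1 without those arrays. Leaving out each array gave 1 to 8 in HSCs, 5 to 7 in MPPs, 47 to 150 between the controls, 12 in each case with Erg reduced or absent and 0 to 3 for the difference of effects. Calls between the controls were lost in 10 of 16 alternatives for Lef1, 9 of 17 for Irf8, 6 of 16 for Cd7 and 1 of 15 for Ebf1, whose level is too low for either filter. The cause was not tested. For the difference of effects no fit of only the arrays compared was run, since it uses all 12. Signal over background is not known without detection calls.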
